A study of Mus musculus with 27 samples.

Results

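The 10 genes described here make fatty acids from carbohydrate carbon or regulate that synthesis: Fasn, Acly, Acaca, Scd1, Scd2, Elovl6, Me1, Srebf1, Mlxipl and Thrsp. They were taken by gene name from a table of 43460 names, each name is present once, and all 10 were among the 17821 names with enough counts to be tested. RNA was sequenced from the epididymal fat pad (white adipose tissue that lies along the epididymis) of C57BL/6N mice in 27 libraries, 3 for each of 9 groups. The initial group was 5 weeks old, before any diet period. The gain8 group was 13 weeks old and had high-fat diet (60% of energy from fat) for 8 weeks, and control8, of the same age, had normal diet for 8 weeks. The loss group was 17 weeks old and had normal diet for the last 4 of 12 weeks, after high-fat diet, and control12 had normal diet for all 12 weeks. The other 4 groups were 21 weeks old at the end of a 16-week period. Of these, regain was returned to high-fat diet for 4 weeks after weight loss, maintenance had normal diet for 8 weeks after high-fat diet, gain4 had high-fat diet for 4 weeks, and control16 had normal diet for 16 weeks. The labels do not state what regain and gain4 ate in each of their earlier 12 weeks.

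De novo lipogenesis starts from citrate exported from mitochondria. ATP citrate lyase (Acly) cleaves it to acetyl-CoA, acetyl-CoA carboxylase 1 (Acaca) makes malonyl-CoA, and fatty acid synthase (Fasn) joins these units to palmitate with NADPH that malic enzyme 1 (Me1) helps to supply. Elovl6 elongates palmitate to stearate, and the stearoyl-CoA desaturases Scd1 and Scd2 place a double bond in these chains. Transcription is driven by SREBP-1 (from Srebf1), which responds to insulin, and by ChREBP (from Mlxipl), which responds to glucose metabolites, while Thrsp encodes Spot 14, a protein linked to lipogenic rate in liver, fat and mammary gland. In rodents the pathway is active in liver as well as in fat.

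Levels are TMM-scaled CPM, the count of a gene relative to its library's scaled total. Each difference is a log2 fold change with its SE, tested with edgeR by quasi-likelihood and called at a Benjamini-Hochberg adjusted p under 0.05 over all genes tested. Libraries held 26479773 to 32728594 counts, and the lowest count of any member in any library was 245. Maintenance library 3 held liver transcripts and the highest level of every member, so each comparison is given with all 27 libraries and with the 26 others. Replicates carry numbers in the labels, with no word on separate animals. A p-value therefore sets a group difference against the spread of these samples within groups, which may not be the spread between animals. Lars2, part of whose locus resembles ribosomal RNA, was above 1000 CPM in 15 libraries and below it in 12, in all groups but initial on both sides when maintenance library 3 is counted. DESeq2, run beside edgeR, gave Acly, Elovl6, Me1 and Srebf1 no adjusted p in any comparison with all 27 libraries, so it could not call them there. In whole tissue, fewer cells of a type and less RNA per cell cannot be told apart. Where the libraries of groups are said not to overlap, the share of all genes separated in that way was not counted.

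By length-scaled level (the deposited FPKM), Scd1 stood far above the other members in every group. In gain8 it averaged 3478 ± 1354 FPKM, against 11252 ± 2231 FPKM in control8 (SD, n = 3 each). Scd1 alone took 1.66 ± 0.648% of all counts in gain8 and 5.37 ± 1.06% in control8. In control8 the next levels were those of Thrsp at 229 ± 80.6 FPKM and Fasn at 143 ± 13.3 FPKM, and the lowest were those of Mlxipl at 13.4 ± 3.58 FPKM and Elovl6 at 4.59 ± 0.469 FPKM. The 10 members together took 2.04 ± 0.681% of counts in gain8 against 5.69 ± 1.06% in control8, 1.55 ± 1.20% in loss against 5.17 ± 1.14% in control12, and 1.39 ± 0.385% in regain and 2.61 ± 1.69% in gain4 against 4.03 ± 0.826% in control16. Most of that sum was Scd1. Without it the members summed to 3736 ± 925 CPM in gain8 against 3067 ± 146 CPM in control8, to 2219 ± 1189 CPM in loss against 2521 ± 936 CPM in control12, and to 2301 ± 325 CPM in regain and 2918 ± 744 CPM in gain4 against 1966 ± 314 CPM in control16. The maintenance group held 6.92 ± 5.38% with library 3 and 3.86 ± 1.33% without it (n = 2).

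**Figure D1:**
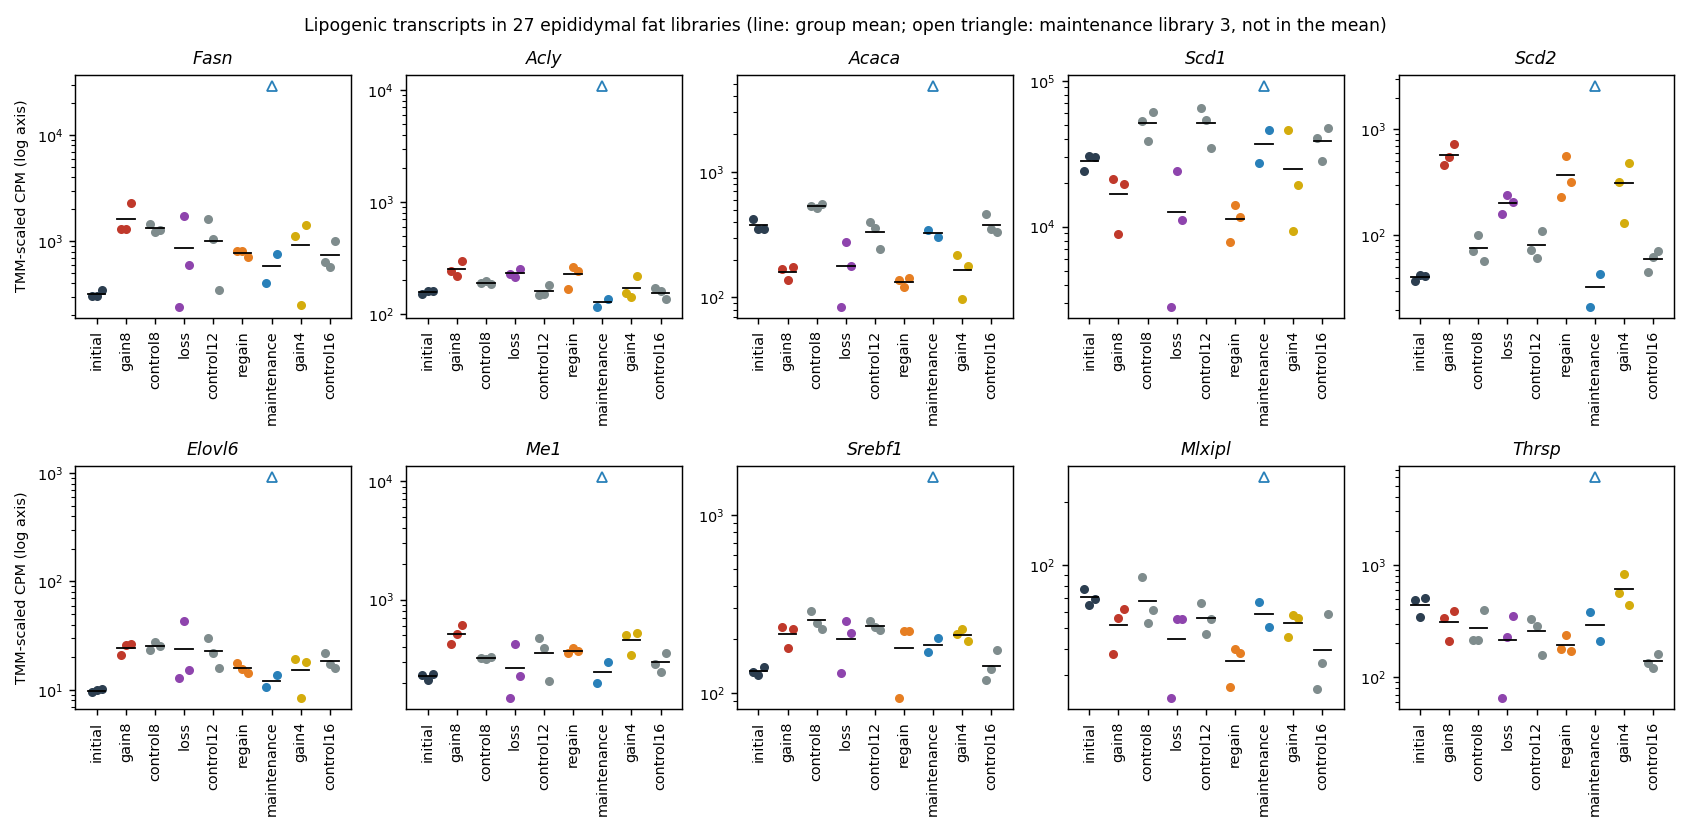
TMM-scaled CPM of each member (log axis) in the 27 libraries by group, with a line at the group mean and maintenance library 3 as an open triangle outside its group's mean. Scd2 was high and Acaca low in the gain8, loss, regain and gain4 groups, Fasn spread widely inside loss, control12 and gain4, and the open triangle is the highest point of each panel.

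After 8 weeks of high-fat diet the enzymes of the pathway did not move together. Scd2 was higher, Scd1 and Acaca were lower, and Fasn overlapped its controls and was not called. With all 27 libraries 1 of 10 members was called, Scd2, against 21.5% of all genes. Without maintenance library 3, 3 of 10 were called, Scd2 higher and Acaca and Scd1 lower, against 26.5% of all genes, so the members' share was near the background.

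Acly, the first step, had 242, 219 and 296 CPM in gain8, against 188, 197 and 185 CPM in control8. Each gain8 library was above each control8 library, with a difference of 0.40 ± 0.17 (26 libraries) that did not pass the test (adjusted p = 0.0794, and 0.774 with all 27). Acaca, the committed step, had 167, 137 and 174 CPM in gain8, against 537, 514 and 560.0 CPM in control8. The groups lay far apart, and the difference was -1.76 ± 0.31 without maintenance library 3 (adjusted p = 0.000405) and -1.75 ± 0.67 with it (adjusted p = 0.0636). The fold was thus nearly the same in both fits, while the SE, which is pooled over all groups, was wider with the library that stands apart. Without that library, Acaca was also called when any of the 26 others was left out.

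Fasn, the synthase itself, had 1299.8, 1300.0 and 2298 CPM in gain8, against 1458, 1234 and 1265 CPM in control8. Only gain8 library 3 lay above the highest control8 library, and the difference was 0.30 ± 0.59 (adjusted p = 0.735, 26 libraries). The length-scaled ratio of Acaca to Fasn was therefore 0.0671 ± 0.0172 in gain8 against 0.266 ± 0.0246 in control8, and that of Acly to Acaca was 4.54 ± 0.362 against 1.02 ± 0.0772. Me1 had 421, 516 and 605 CPM in gain8, against 319, 316 and 327 CPM in control8, groups that do not overlap but whose difference of 0.67 ± 0.30 was not called (adjusted p = 0.103). Elovl6, the elongase, had 20.8, 26 and 26.5 CPM in gain8, against 23.5, 27.8 and 25.4 CPM in control8, and its groups overlapped (-0.07 ± 0.34, adjusted p = 0.899).

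The measured differences of the desaturases had opposite signs. Scd1, the main desaturase of fat and liver, had 21328, 8864 and 19683 CPM in gain8, against 53263, 38880.0 and 61432 CPM in control8. All gain8 libraries were below all control8 libraries, and the difference was -1.63 ± 0.58 without maintenance library 3 (adjusted p = 0.0408) and -1.62 ± 0.61 with it (adjusted p = 0.0617). That call without maintenance library 3 was lost when any gain8 or control8 library or loss library 3 was left out as well, with the fold between -1.83 and -1.33. Scd2 had 457, 550.5 and 729 CPM in gain8, against 71.7, 101 and 57.4 CPM in control8. It was called in both fits, at 2.92 ± 1.0 with 27 libraries (adjusted p = 0.0415) and 2.91 ± 0.41 with 26 (adjusted p = 7.73e-05). With 27 libraries the call ended when any gain8 or control8 library, initial library 1 or initial library 2 was left out. With 26 it held for each library left out.

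The 3 regulators overlapped between the groups. Srebf1 averaged 214 ± 30.1 CPM in gain8 and 256 ± 31.4 CPM in control8 (-0.26 ± 0.25, adjusted p = 0.46), and Mlxipl 51.8 ± 12.4 CPM in gain8 and 67.4 ± 18.2 CPM in control8 (-0.38 ± 0.31, adjusted p = 0.375). Thrsp averaged 309 ± 90.8 CPM in gain8 and 275 ± 104 CPM in control8 (0.16 ± 0.43, adjusted p = 0.816, 26 libraries). A p that misses the threshold does not show that these levels were alike. Other transcripts moved with the diet: 10 macrophage markers summed to 4373 to 5288 CPM in gain8 and 729.7 to 904 CPM in control8, while 14 adipocyte markers summed to 49417 to 53357 CPM and 49239 to 64127 CPM. 9 of 10 macrophage markers were called higher, and 4 of 14 adipocyte markers lower and 1 higher. Their part in the members' differences was not tested.

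The loss group shows what stood 4 weeks after the return to normal diet. Scd1 was lower than in control12 in both fits, the only member called with all 27 libraries, where 20% of all genes were called. Without maintenance library 3, 4 of 10 members were called, Acly and Scd2 higher and Acaca and Scd1 lower, against 25.1% of all genes. Scd1 had 2839, 24141 and 11116 CPM in loss, against 65069, 53440.0 and 34422 CPM in control12. The difference was -2.01 ± 0.62 with 27 libraries (adjusted p = 0.0267) and -2.0 ± 0.58 with 26 (adjusted p = 0.0172), and it was -1.53 without loss library 1, where the call ended in both fits. Leaving out loss library 3 or control12 library 1 also ended it in both fits, and control12 library 2 in the fit with 27 libraries.

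Scd2 had 159.7, 239 and 208 CPM in loss, against 73.7, 61.6 and 111 CPM in control12, groups that do not overlap (1.32 ± 0.39, adjusted p = 0.0186 with 26 libraries and 0.343 with 27). Acly had 228, 212 and 249 CPM in loss, against 147, 150.0 and 180.2 CPM in control12, a small difference that was the same way in every library (0.54 ± 0.17, adjusted p = 0.023 with 26 libraries and 0.708 with 27). Acaca had 84.6, 276 and 178 CPM in loss, against 396, 359 and 245 CPM in control12. These groups overlapped: loss library 2 lay above control12 library 3, and the difference of -0.89 ± 0.30 (adjusted p = 0.0373, 26 libraries) was -0.55 and not called without loss library 1. Of the calls without maintenance library 3, that of Acly ended without loss library 1 or 3 or control12 library 1 or 2, that of Acaca without the same libraries, and that of Scd2 without control12 library 1 or 2.

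Fasn was widely scattered in both groups, with 242, 1738 and 600.1 CPM in loss, against 1637, 1056 and 348 CPM in control12. Its lowest and highest loss libraries lay on either side of all control12 libraries, and the difference was -0.23 ± 0.59 (adjusted p = 0.808). Elovl6 with 13.0, 43.5 and 15.3 CPM and Me1 with 149, 419 and 225 CPM in loss had the same order of libraries, low in library 1 and high in library 2, against 30.2, 21.8 and 16.0 CPM and 476, 393 and 204 CPM in control12. Loss library 1 also had the lowest Thrsp, Mlxipl, Acaca, Scd1, Me1 and Fasn of the 26 libraries, and its Thrsp was at 65.4 CPM. Its adipocyte markers summed to 25728 CPM, the lowest of all libraries, and its macrophage markers to 15769 CPM, the highest. In the whole loss group macrophage markers summed to 5316 to 15769 CPM, against 721 to 999.8 CPM in control12, and adipocyte markers to 25728 to 52520.0 CPM against 46129 to 76000.0 CPM. Their part in the members' differences was not tested.

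Whether the difference from controls itself changed between gain8 and loss was tested as a difference of differences. edgeR called 0 of 10 members in either fit, with 2 at an unadjusted p under 0.05 without maintenance library 3 (Scd2 and Me1) and 0 with it, and DESeq2 called 0 in both. No gene at all was called by edgeR (0% in both fits). Scd2 gave -1.60 ± 0.54 (adjusted p = 0.407), Me1 -1.10 ± 0.43 (adjusted p = 0.436) and Acaca 0.88 ± 0.43 (adjusted p = 0.557). Set directly against gain8, the loss group had lower Scd2 in every library, at most 239 CPM against at least 457 CPM. For Me1, loss library 2 at 418.6 CPM lay just below gain8 library 1 at 420.6 CPM. By FPKM the order of these 2 libraries was reversed, at 111.2 and 109.5 FPKM. The differences of Scd2 and Me1, -1.52 ± 0.39 and -0.96 ± 0.30, were not called by edgeR (adjusted p = 0.0837 and 0.151, 26 libraries). DESeq2 called both without maintenance library 3. edgeR called 0 of 10 members there in either fit, with 2 and 0 at an unadjusted p under 0.05 with 26 and 27 libraries, and 0.185% and 0.0786% of all genes called.

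At 21 weeks of age, high-fat diet for 4 weeks after weight loss (regain) was set against control16. Scd1 fell in both fits, and without maintenance library 3 Acaca fell and Scd2 and Acly rose too. With 27 libraries 1 of 10 members was called against 21.7% of all genes, and with 26 libraries 4 of 10 against 25.8%. Scd1 had 7879, 14048 and 11732 CPM in regain, against 40622, 28126 and 47422 CPM in control16 (-1.79 ± 0.61, adjusted p = 0.0413 with 27 libraries, and -1.78 ± 0.58, adjusted p = 0.0274 with 26). Every regain library lay below every control16 library. With 27 libraries the call ended for 11 libraries left out in turn, among them every regain and every control16 library, and the fold then lay between -1.98 and -1.57.

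Scd2 had 229, 562 and 321 CPM in regain, against 45.7, 62.6 and 72.0 CPM in control16 (2.63 ± 0.41, adjusted p = 9.73e-05 with 26 libraries and 0.0624 with 27). Acaca had 137, 121 and 142 CPM in regain, against 463, 349 and 331 CPM in control16 (-1.50 ± 0.31, adjusted p = 0.00118 with 26 libraries and 0.106 with 27). Neither pair of groups overlapped, and without maintenance library 3 both calls held for each further library left out. Acly had 167, 264 and 244 CPM in regain, against 169, 159 and 135 CPM in control16. Regain library 1 lay within the control16 range, and the call (0.55 ± 0.17, adjusted p = 0.0202, 26 libraries) ended without regain library 2 or 3 or control16 library 2 or 3. The call of Scd1 in the fit without maintenance library 3 ended without regain library 1 or 3 or control16 library 1 or 3.

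Fasn had 812, 801 and 716 CPM in regain, against 631, 572 and 1009 CPM in control16, and the difference was 0.08 ± 0.59 (adjusted p = 0.942). The 3 regain libraries lay close together, inside the control16 range. Me1 with 355, 391 and 365 CPM and Thrsp with 176, 237 and 172 CPM in regain were above 288, 244 and 354 CPM and 134, 119.8 and 159.8 CPM in control16 in every library, without passing the test (0.33 ± 0.30 and 0.50 ± 0.43, adjusted p = 0.441 and 0.411). Elovl6, Srebf1 and Mlxipl overlapped between the groups. Macrophage markers summed to 6407 to 8589 CPM in regain against 896 to 1123 CPM in control16, and adipocyte markers to 32079 to 44949 CPM against 52229 to 69864 CPM, and their part in the members' differences was not tested.

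High-fat diet for 4 weeks at the same age (gain4) showed Scd2 and Thrsp higher and Acaca lower than control16, each called without maintenance library 3 only. With 27 libraries edgeR called 0 of 10 members, 2 were at an unadjusted p under 0.05 and DESeq2 called 1 (Thrsp), while 5.82% of all genes were called. With 26 libraries 3 of 10 were called, against 11.1% of all genes. Thrsp had 562, 830.5 and 437 CPM in gain4, against 134, 119.8 and 159.8 CPM in control16 (2.18 ± 0.45, adjusted p = 0.00702 with 26 libraries and 0.0999 with 27). Without maintenance library 3, gain4 was the group with the highest and control16 that with the lowest mean of this gene. Of the 26 libraries left out in turn, control16 library 2 alone ended the call.

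Scd2 had 321, 131 and 486 CPM in gain4, against 45.7, 62.6 and 72.0 CPM in control16 (2.40 ± 0.40, adjusted p = 0.0023, and 0.138 with 27 libraries). Acaca had 218, 97.6 and 179 CPM in gain4, against 463, 349 and 331 CPM in control16 (-1.18 ± 0.30, adjusted p = 0.0185, and 0.261 with 27 libraries). Its call ended without gain4 library 2, control16 library 1 or control16 library 2. Scd1, with 45745, 9305 and 19238 CPM in gain4, against 40622, 28126 and 47422 CPM in control16, was not called (-0.62 ± 0.56, adjusted p = 0.502). Gain4 library 1 lay inside the control16 range for Scd1, while library 2 was the lowest of its group for Scd1, Fasn, Acaca, Elovl6, Me1, Acly and Scd2 and the highest for Thrsp. Srebf1 averaged 213 ± 16.7 CPM in gain4 and 142 ± 28.7 CPM in control16, groups that do not overlap (0.61 ± 0.25, adjusted p = 0.12). Fasn, Acly, Elovl6, Me1 and Mlxipl were not called and ranged between -0.24 and 0.65 in log2 fold change. The macrophage sum was 2119.5 to 4498 CPM in gain4, and its part in these differences was not tested.

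**Figure D2:**
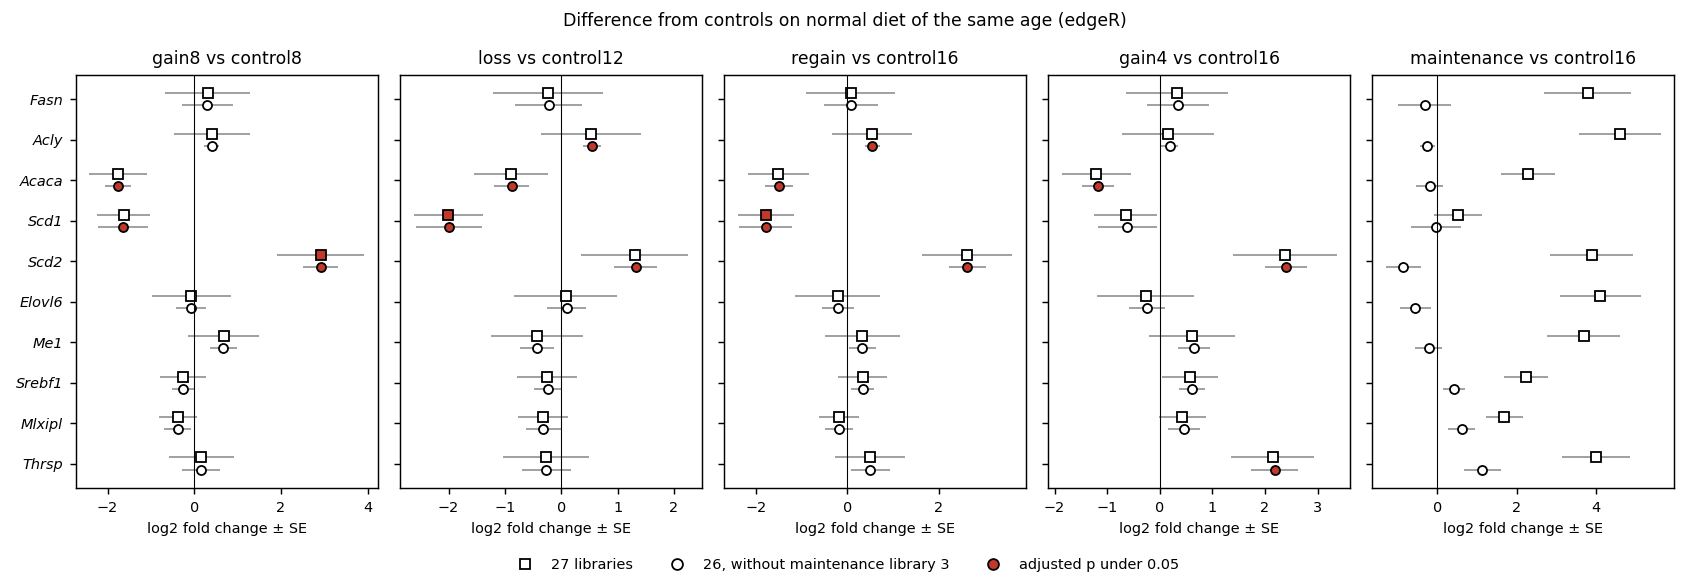
Log2 fold change ± SE (edgeR) of the 10 members in 5 groups, each against its controls on normal diet, with all 27 libraries (squares) and without maintenance library 3 (circles), filled where the adjusted p was under 0.05. In the panels other than maintenance the 2 fits give nearly the same folds with narrower SE without that library, and in the maintenance panel the library puts 9 of the 10 folds between 1.69 and 4.60, with Scd1 at 0.52.

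Regain and gain4 both ended with 4 weeks of high-fat diet, regain after weight loss, and were compared with each other. Thrsp was lower in regain, at 176, 237 and 172 CPM against 562, 830.5 and 437 CPM in gain4, and the groups do not overlap. The difference was -1.68 ± 0.44 without maintenance library 3 (adjusted p = 0.0284), the only 1 of 10 members called, against 9.4% of all genes. With 27 libraries it was -1.65 ± 0.78 (adjusted p = 0.19), and edgeR and DESeq2 each called 0 of 10 members, with 1 at an unadjusted p under 0.05 in edgeR and 5.49% of all genes called. The call without maintenance library 3 ended without regain library 1 or 3 or gain4 library 1 or 2. Cell markers moved in the same comparison without maintenance library 3: 4 of 14 adipocyte markers were called lower, among them Retn (-2.08 ± 0.52), Adipoq (-1.33 ± 0.39) and Cfd (-2.31 ± 0.67), and 5 of 10 macrophage markers higher. The adipocyte sums were 32079 to 44949 CPM in regain against 55161 to 71547 CPM in gain4 and did not overlap, and the part of these markers in the difference of Thrsp was not tested. Mlxipl was also lower in every regain library, at 26.2, 40.0 and 38.3 CPM against 45.6, 58.1 and 55.8 CPM in gain4, and was not called (-0.64 ± 0.31, adjusted p = 0.179). Scd2 differed by 0.23 ± 0.38 (adjusted p = 0.74).

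The maintenance group, after 8 weeks back on normal diet, is given here with and without its library 3, which set its means for most members. Fasn had 401, 758 and 29330.0 CPM in maintenance libraries 1, 2 and 3, against 631, 572 and 1009 CPM in control16. Acly had 116, 137 and 10963 CPM in maintenance, against 169, 159 and 135 CPM in control16. Library 3 was the highest of all 27 libraries for each of the 10 members. Over the highest other library it was 37.1-fold higher for Acly, 21.3-fold for Elovl6, 17.9-fold for Me1, 12.8-fold for Fasn, 8.72-fold for Acaca and 7.29-fold for Thrsp. For Srebf1 the ratio was 5.67, for Scd2 3.56, for Mlxipl 3.02 and for Scd1 1.42. Set against the mean of maintenance libraries 1 and 2 the order was another: the ratio was 86.7 for Acly, 79.6 for Scd2, 76.0 for Elovl6, 50.6 for Fasn, 43.8 for Me1, 8.84 for Srebf1 and 2.52 for Scd1. Acly had the highest and Scd1 the lowest ratio by both measures.

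The same library held transcripts of liver. Of 18 liver markers 17 were highest there, and without Cyp2e1, a cytochrome P450 that fat also expresses, 17 of 17 were. Those 17 summed to 9299 CPM there, against 9.34 to 154 CPM in the others, with albumin (Alb) at 5230.4 CPM against at most 80.9 CPM. Brown adipocyte markers summed to 159.7 CPM against at most 63.5 CPM, with 5 of 10 highest there, and 4 of 5 milk protein genes, markers of mammary gland, were at 0. Its adipocyte sum of 55614 CPM lay within the range of the other libraries, 25728 to 78369 CPM, and its macrophage sum of 527 CPM was the lowest of all. Genes of carbon and NADPH supply were highest there in 16 of 18 cases and those of cholesterol synthesis in 19 of 21. The part of liver transcripts in the members' levels was not tested.

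**Figure D3:**
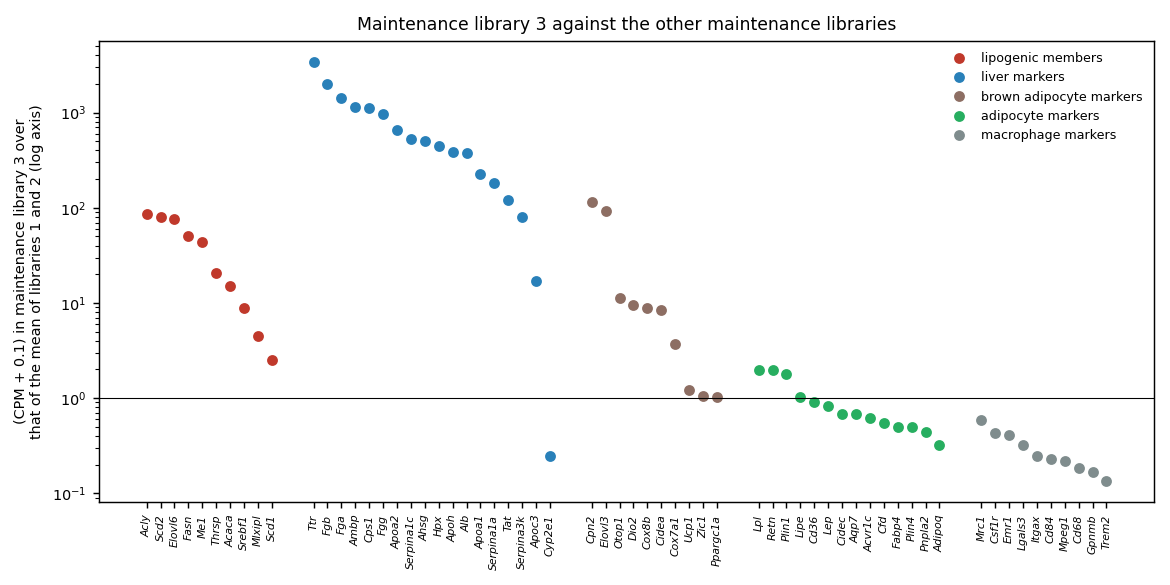
Ratio (log axis) of CPM + 0.1 in maintenance library 3 to that of the mean of maintenance libraries 1 and 2, 1 point per gene, for the 10 members and for marker lists of liver, brown adipocyte, adipocyte and macrophage. All 10 members and all liver markers but Cyp2e1 lie above 1, and all macrophage markers lie below it.

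With that library maintenance averaged 10163 ± 16600.0 CPM of Fasn and 3739 ± 6256 CPM of Acly (SD, n = 3), and without it 579.6 ± 252 and 126 ± 14.5 CPM (n = 2), against 737 ± 237 and 154 ± 17.4 CPM in control16. For the other members the 2 maintenance means, with and without it, were 1844 ± 2632 and 324 ± 30.5 CPM of Acaca, 55420.0 ± 33554 and 36807 ± 13154 CPM of Scd1 and 887 ± 1479 and 32.6 ± 15.8 CPM of Scd2. They were 316 ± 527 and 12.2 ± 2.21 CPM of Elovl6, 3782 ± 6123 and 248 ± 69.3 CPM of Me1 and 673 ± 843 and 186 ± 24.8 CPM of Srebf1. They were 127 ± 119 and 58.7 ± 11.1 CPM of Mlxipl and 2213 ± 3326 and 294 ± 117 CPM of Thrsp. The SD with library 3 exceeded the mean for 8 of the 10, all but Scd1 and Mlxipl.

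Against control16 the log2 fold changes with all 27 libraries ran from 0.52 (Scd1) to 4.60 (Acly), and without library 3 from -0.85 (Scd2) to 1.14 (Thrsp). Fasn was 3.78 ± 1.09 with it and -0.32 ± 0.66 without it. Neither fit called a member or any other gene (0% of all genes in both), although 9 of 10 members with 27 libraries and 1 with 26 (Thrsp) were at an unadjusted p under 0.05. DESeq2 called 5 of 10 members with 27 libraries, gave 4 others no adjusted p, and called 0 with 26. In libraries 1 and 2 alone, Thrsp was above and Scd2 and Elovl6 below every control16 library. The share of all genes separated in this way was not counted. The adjusted p without library 3 was 0.348 for Thrsp, 0.404 for Scd2 and 0.522 for Elovl6 (edgeR).

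Regain set against maintenance shows how far that library reaches. With it 9 of 10 members were called, all lower in regain, against 26.9% of all genes and 13% called lower, among them Fasn at -3.71 ± 1.08 (adjusted p = 0.0151) and Acly at -4.06 ± 1.0 (adjusted p = 0.00514). Without it 4 of 10 were called, against 27% of all genes. Acly was then higher in regain at 0.80 ± 0.19 (adjusted p = 0.00462) and Scd2 higher at 3.48 ± 0.50 (adjusted p = 0.00016), while Acaca at -1.31 ± 0.33 (adjusted p = 0.00645) and Scd1 at -1.75 ± 0.62 (adjusted p = 0.0418) were lower. Fasn was at 0.39 ± 0.66 (adjusted p = 0.693). Without that library 10 of 10 macrophage markers were called higher and 9 of 14 adipocyte markers lower in regain, with medians of 2.14 and -1.22, and their part in the members' differences was not tested. The sign changed for Fasn, Acly, Scd2, Elovl6 and Me1, and stayed negative for Acaca, Scd1, Srebf1, Mlxipl and Thrsp. Of the 4 calls, those of Acly and Acaca ended without maintenance library 1. That of Scd1 ended without any regain library, maintenance library 1 or 2, initial library 3 or loss library 3. The Scd1 call held in only 4 of 9 other settings. It ended with Lars2 set as a model term (-1.29, edgeR adjusted p = 0.141), a replicate block, no filter on low counts and either limma setting. Maintenance libraries 1 and 2 and regain library 1 were in the low Lars2 set, and regain libraries 2 and 3 in the high set.

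On normal diet, 13 weeks of age (control8) was set against 5 weeks (initial). Without maintenance library 3 edgeR called Elovl6 alone, higher at 13 weeks, and DESeq2 called Elovl6, Fasn and Srebf1. Every control8 library lay above every initial library for Fasn, Acly, Acaca, Scd1, Scd2, Elovl6, Me1 and Srebf1, while Mlxipl and Thrsp overlapped. The share of all genes separated in this way was not counted. Fasn averaged 1319 ± 122 CPM in control8 and 318 ± 22.7 CPM in initial (2.06 ± 0.61, adjusted p = 0.077, 26 libraries). Elovl6, at 23.5, 27.8 and 25.4 CPM in control8 and 9.51, 9.86 and 10.1 CPM in initial, was the 1 of 10 members called without maintenance library 3 (1.38 ± 0.35, adjusted p = 0.043), against 2.08% of all genes. That call ended for 11 of the 26 further libraries left out, among them every initial and every control8 library, and with Lars2 set as a model term. With 27 libraries edgeR called 0 members and so did DESeq2, which gave Elovl6, Acly, Me1 and Srebf1 no adjusted p there, 0 were at an unadjusted p under 0.05 and 0.724% of all genes were called. The 3 initial libraries, all in the high Lars2 set, lay close together, with Fasn at 307, 303 and 344 CPM. From 13 to 21 weeks on normal diet edgeR called 0 of 10 members in either fit (0.142% of all genes with 26 libraries and 0.0168% with 27), with 3 (Srebf1, Mlxipl and Thrsp) and 0 at an unadjusted p under 0.05, and DESeq2 called 0 in both. Srebf1 averaged 133 ± 6.58 CPM in initial, 256 ± 31.4 in control8, 238 ± 13.2 in control12 and 142 ± 28.7 in control16.

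Without maintenance library 3, Scd2 divided the 9 groups library by library and Acaca by group means. Every library of gain8, regain, gain4 and loss had more Scd2 (at least 131 CPM) than any library of the 5 other groups (at most 111 CPM). For Acaca the means of these 4 groups, 134 to 179 CPM, were below those of the others, 324 to 537 CPM, with loss library 2 above control12 library 3. How many of all genes divide the groups in either way was not counted. In order of mean Scd2 the groups ran gain8, regain, gain4 and loss, then control12, control8 and control16, then initial and maintenance. Neighbouring groups overlapped except loss with control12 and control16 with initial. Fasn gave no such division: its groups ran from gain8 at 1632 ± 576 CPM down to initial at 318 ± 22.7 CPM, and each neighbour in the order overlapped the next until initial.

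Scd1 and Scd2 are neighbours on chromosome 19 with similar coding sequences, so some reads could match both. In the GENCODE annotation of GRCm38, Scd1 lies at 44394455 to 44407879 on the minus strand and Scd2 at 44293674 to 44306864 on the plus strand. Their longest coding sequences, of 1068 and 1077 bases in the annotation's transcripts, were identical at 90.4% of 1068 aligned bases, with a longest identical run of 147 bases. The stretch below, Scd1 coding bases 610 to 729 and Scd2 coding bases 619 to 738, is shown because a read within it can be assigned only through its 2 differing bases, which are in capitals.
Scd1: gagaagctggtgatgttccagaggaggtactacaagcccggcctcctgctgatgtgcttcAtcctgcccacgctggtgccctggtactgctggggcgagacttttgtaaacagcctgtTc
Scd2: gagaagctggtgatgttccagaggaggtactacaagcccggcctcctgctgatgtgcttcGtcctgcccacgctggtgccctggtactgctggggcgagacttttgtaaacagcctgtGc
Over windows of 100 bases the median number of differences was 6, so most reads should carry some, but the counting rule for reads that match both is not known here. The 2 genes are therefore reported with that uncertainty. The measured changes had opposite signs in gain8, loss and regain, where Scd1 was the lower and Scd2 the higher.

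Scd2 remained a small share of the pair. By FPKM it made up 3.42 ± 1.69% of the summed Scd1 and Scd2 level in gain8, against 0.144 ± 0.0761% in control8. It made up 2.42 ± 2.06% in loss, against 0.162 ± 0.105% in control12. It made up 2.77 ± 0.572% in regain and 1.35 ± 0.794% in gain4, against 0.144 ± 0.0493% in control16. Maintenance libraries 1 and 2 gave 0.0765 ± 0.0108%, the lowest group value, and maintenance library 3 gave 2.42%. The 2 genes were not strictly tied: within groups their log2 CPM had a Pearson's r of 0.394 over 26 libraries.

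**Figure D4:**
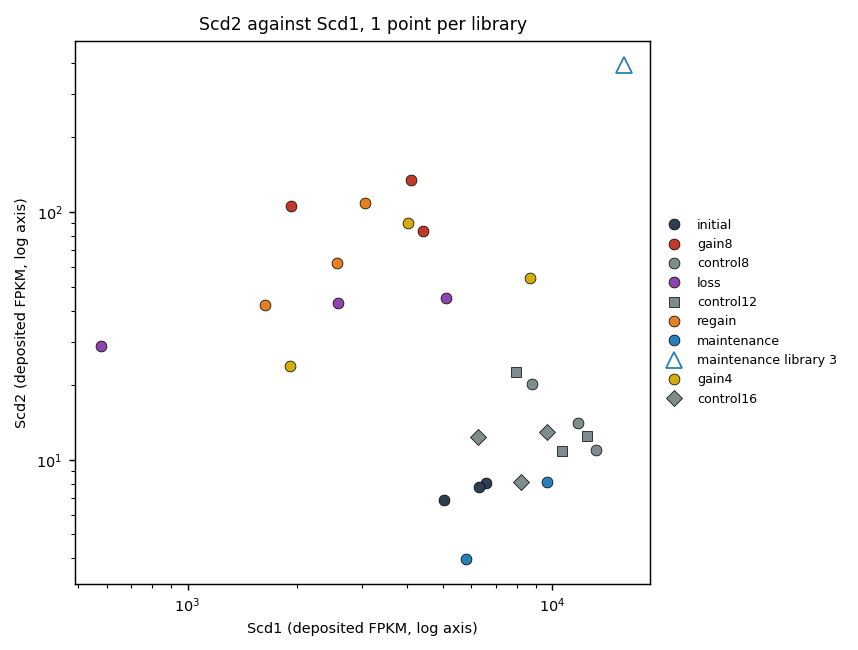
Deposited FPKM of Scd2 against Scd1 (both log axes), 1 point per library, coloured by group, with maintenance library 3 as an open triangle. The gain8, regain, gain4 and loss libraries lie above and mostly to the left of the normal-diet controls, initial and maintenance libraries 1 and 2.

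How the members varied beside each other was read from the 26 libraries without maintenance library 3, as a description. The points share library depth and tissue makeup, and no p is given. After removing group means, Fasn and Me1 had a Pearson's r of 0.937, Fasn and Elovl6 0.86, Fasn and Acaca 0.816, Fasn and Scd1 0.8 and Acaca and Scd1 0.836. Libraries of 1 group that were high in Fasn were thus high in the other enzymes of chain synthesis. Acly did not follow them, with 0.0898 to Fasn and 0.0385 to Acaca, and was nearest to Scd2 at 0.67. Among regulators, Srebf1 had 0.663 to Mlxipl and 0.348 to Fasn. Of 45 pairs 42 were positive within groups. Across all 26 libraries, where group differences enter, 35 were, and Acaca and Scd2 stood at -0.715. Within-group scatter was largest for Fasn, with an SD of 0.83 in log2 CPM, and Scd1, with 0.775, and smallest for Acly, with 0.208.

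**Figure D5:**
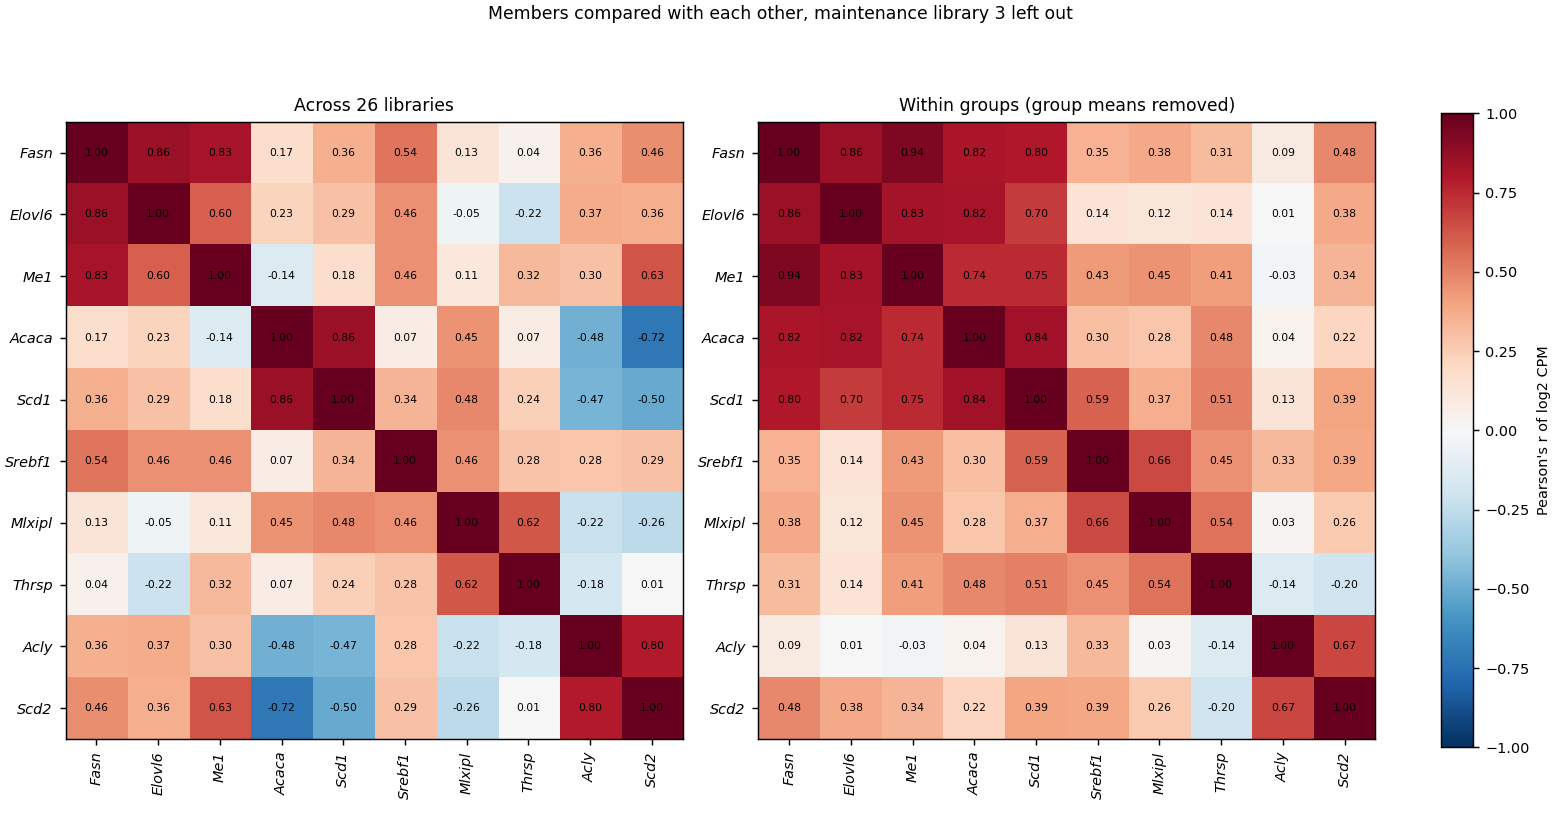
Pearson's r of log2 CPM between members over 26 libraries, without maintenance library 3, across all libraries (left) and after group means were removed (right). Fasn, Elovl6, Me1, Acaca and Scd1 form a block of high values within groups, Acly and Scd2 a pair, and Acaca and Scd2 are the most negative pair across libraries.

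The promoters of Fasn, Me1 and Elovl6, which varied together within groups, and of Acly, which did not vary with them, are shown as RefSeq gives them on GRCm38.p6, 250 bases before to 50 after the start. The Fasn promoter is at chr11:120824498-120824797 on the minus strand, Me1 at chr9:86695865-86696164 on the minus strand, Elovl6 at chr3:129532136-129532435 on the plus strand and Acly at chr11:100527951-100528250 on the minus strand. Capitals mark matches on either strand to CCAAT (the CCAAT box that NF-Y binds), CACGTG (an E-box), GGGCGG (the GC box that Sp factors bind) and ATCACCC (the start of a sterol regulatory element).
Fasn: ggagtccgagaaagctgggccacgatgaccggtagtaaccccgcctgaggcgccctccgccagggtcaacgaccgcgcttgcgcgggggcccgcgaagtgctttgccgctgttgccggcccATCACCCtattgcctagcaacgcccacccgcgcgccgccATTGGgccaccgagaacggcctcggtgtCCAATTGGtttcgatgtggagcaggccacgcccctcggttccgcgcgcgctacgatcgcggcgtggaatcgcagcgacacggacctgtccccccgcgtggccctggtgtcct
Me1: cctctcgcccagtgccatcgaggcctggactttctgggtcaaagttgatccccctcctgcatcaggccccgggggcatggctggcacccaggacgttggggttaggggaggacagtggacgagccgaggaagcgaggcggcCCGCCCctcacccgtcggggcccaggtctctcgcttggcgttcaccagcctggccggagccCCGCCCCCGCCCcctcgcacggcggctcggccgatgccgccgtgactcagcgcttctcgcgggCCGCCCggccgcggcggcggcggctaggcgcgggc
Elovl6: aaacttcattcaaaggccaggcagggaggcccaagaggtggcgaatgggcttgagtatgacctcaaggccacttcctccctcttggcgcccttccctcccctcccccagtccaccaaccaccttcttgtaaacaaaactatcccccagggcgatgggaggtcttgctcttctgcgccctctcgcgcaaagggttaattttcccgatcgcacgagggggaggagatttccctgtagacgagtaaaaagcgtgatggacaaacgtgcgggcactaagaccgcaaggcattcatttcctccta
Acly: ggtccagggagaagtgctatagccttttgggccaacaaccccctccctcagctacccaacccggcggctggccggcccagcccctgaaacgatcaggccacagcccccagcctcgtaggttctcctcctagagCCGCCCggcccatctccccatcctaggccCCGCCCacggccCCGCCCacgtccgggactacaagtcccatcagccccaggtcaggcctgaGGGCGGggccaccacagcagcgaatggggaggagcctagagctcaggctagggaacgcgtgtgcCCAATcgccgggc
The Fasn window held 1 ATCACCC match, starting 129 bases before the start site, and 3 CCAAT matches, of which 2 on opposite strands overlap. The Acly window held 4 GC boxes and 1 CCAAT, the Me1 window 4 GC boxes, of which 2 adjoin, and the Elovl6 window none of the 4 motifs. Of all 32851 promoters in the table, 37.4% held CCAAT, 7.15% CACGTG, 35.7% GGGCGG and 2.69% ATCACCC. Among the 8 members with an entry, Thrsp held 2 CCAAT, Srebf1 1 CCAAT, Mlxipl 1 CCAAT, 1 E-box and 2 GC boxes, and Acaca none, in a window 65766 bases from its annotated gene start. These are letter matches in these windows. Me1 and Mlxipl had 2 entries each and Srebf1 3, of which 1 was used. No motif was shared across the Fasn, Me1 and Elovl6 windows, since that of Elovl6 held none. Acaca and Scd1, which also varied with Fasn within groups, are not part of that comparison.

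Fasn lies on chromosome 11 at 120805846 to 120824547, Acly on 11 at 100476353 to 100528000, Srebf1 on 11 at 60199089 to 60222581, all on the minus strand, and Acaca on 11 at 84129672 to 84401651 on the plus strand (GENCODE, GRCm38). Elovl6 lies on chromosome 3 at 129532355 to 129638495 and Mlxipl on 5 at 135089890 to 135138382, on the plus strand, and Thrsp on 7 at 97412938 to 97417730 and Me1 on 9 at 86581371 to 86695953, on the minus strand. Srebf1 shares 109 exonic bases with Rai1 on the other strand, Mlxipl 235 with the antisense gene Gm43500, Elovl6 34 with Gm35986 and Me1 30 with A330041J22Rik. Whether counting used strand is not known here, so reads on those bases cannot be told apart.

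By Pearson's r over the 26 libraries, the genes most like the mean of the members' z-scored log2 CPM, among 10880 named genes with a mean of at least 5 CPM, were Fam115a (0.841), Ermp1 (0.824), Tspan12 (0.822), Rims4 (0.817), Mfn2 (0.806), Pnpla3 (0.802), Fsd2 (0.801), Tenm4 (0.787), Tmem179 (0.783) and Wscd2 (0.782). Pnpla3 encodes a lipid droplet acyl hydrolase and Mfn2 a mitochondrial fusion protein. Over 27 libraries these values ran from 0.296 to 0.842. The members differ in how they follow that mean, from 0.866 for Fasn to 0.279 for Acaca. Looked up member by member, after values were seen, Scd2 was most like Cyb5b (0.948) and the cholesterol synthesis genes Lss (0.947) and Nsdhl (0.935) were among its first 4. Acss2, which makes acetyl-CoA from acetate, was among the first 5 of Me1 (0.902).

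Genes around the pathway were counted from lists chosen with earlier results of these data known, here without maintenance library 3. Each list count is to be set beside the share of all genes called. That share was 26.5% in gain8, 25.1% in loss, 25.8% in regain and 11.1% in gain4. Cholesterol synthesis genes, which SREBP-2 drives, were called higher in 13 of 20 cases in gain8, 9 in loss, 13 in regain and 9 in gain4, each against its controls, and in none lower. Among them Dhcr7, the last reductase, was 2.30 ± 0.24 in gain8, 1.72 ± 0.23 in loss, 2.0 ± 0.24 in regain and 1.25 ± 0.23 in gain4, and Fdps, which makes farnesyl diphosphate, 1.85 ± 0.22, 1.37 ± 0.22, 1.57 ± 0.22 and 1.32 ± 0.22 in the same order. The list medians were 0.92, 0.60, 1.01 and 0.68, while the medians of all genes lay between -0.04 and 0.0, and the members' own medians were 0.04, -0.25, 0.20 and 0.40. With all 27 libraries 3, 3, 2 and 0 of the 20 were called, against 21.5%, 20%, 21.7% and 5.82% of all genes.

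Insig1, a sterol-responsive brake on SREBP processing, was called higher in gain8 (1.70 ± 0.35), regain (1.53 ± 0.35) and gain4 (1.32 ± 0.35), and among the 8 genes of SREBP regulation, of which 1 was higher and 2 lower in loss and 2 and 2 in regain, Insig2 and the lipin gene Lpin1 were called lower in loss (-0.78 ± 0.21 and -1.37 ± 0.36) and regain (-0.95 ± 0.21 and -1.49 ± 0.36). Srebf2, which encodes SREBP-2, was the gene called higher in loss (0.68 ± 0.21). Acacb, the mitochondrial carboxylase whose malonyl-CoA restrains fatty acid oxidation, was lower where Acaca was: it stood at -1.57 ± 0.33 in gain8, -1.74 ± 0.33 in loss, -2.59 ± 0.34 in regain and -1.77 ± 0.33 in gain4, called each time. Its 10-gene list of carboxylase partners had 3, 2, 2 and 1 genes lower and 0, 0, 1 and 0 higher.

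Of 18 genes of carbon and NADPH supply, 6 were higher and 3 lower in gain8, 2 and 2 in loss, 3 and 1 in regain and 6 and 0 in gain4. Idh1, a cytosolic NADPH source, was called in loss (1.03 ± 0.19), regain (1.40 ± 0.20) and gain4 (1.23 ± 0.20). Of 17 elongation and desaturation genes, 4 were higher and 1 lower in gain8, with the delta-5 desaturase Fads1 at -0.99 ± 0.18, and 3 and 4 in loss, with Scd3, a further stearoyl-CoA desaturase, at -2.50 ± 0.52. In regain 2 were higher and 2 lower, with Scd3 at -1.52 ± 0.50, and in gain4 1 and 1. Of all genes, 26.5%, 25.1%, 25.8% and 11.1% were called in gain8, loss, regain and gain4.

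Of 9 carbohydrate response genes, Txnip, a glucose-induced target of ChREBP, was called lower in gain8 (-0.94 ± 0.23), loss (-1.05 ± 0.23), regain (-1.36 ± 0.23) and gain4 (-0.98 ± 0.23), and Gpd1, which makes glycerol 3-phosphate, higher in gain8 (1.59 ± 0.31), regain (1.39 ± 0.31) and gain4 (1.61 ± 0.31). Of 10 genes of insulin input, 4 were lower in gain8, 4 in loss, 6 in regain and 2 in gain4, and none higher. The insulin receptor gene Insr was -1.16 ± 0.18 in gain8, -0.77 ± 0.17 in loss, -1.24 ± 0.18 in regain and -0.86 ± 0.17 in gain4. Of 9 other lipogenic transcription factor genes 3, 2, 2 and 0 were called in gain8, loss, regain and gain4. The shares of all genes called were 26.5%, 25.1%, 25.8% and 11.1% in the same order. Mlx, the partner of ChREBP, was called higher in gain8 (0.57 ± 0.17), loss (0.89 ± 0.17) and regain (0.73 ± 0.17). The comparisons of regain and gain4 share the control16 libraries. Beside these lists, also without maintenance library 3, 10 of 10 macrophage markers were called higher in loss, 10 in regain and 7 in gain4, and 7, 8 and 0 of 14 adipocyte markers lower. Of 6 genes read as signs of RNA quality, Lars2 and 5 mitochondrially encoded genes, 3 were lower in gain8, 5 in loss, 4 in regain and 1 in gain4, and the part of these in the members' differences was not tested.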

How the data were processed

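Epididymal fat RNA from 27 samples was made into libraries with a TruSeq kit, per the labels' protocols. The submitters' processing notes name Trimmomatic 0.33, TopHat2 2.0.13, HTSeq 0.6.0 and the mm10 and GRCm38 builds, while the annotation used, the strand setting and the handling of reads that match several genes are not given in the sources used here. The authors deposited whole-number counts per gene and, in a separate table, FPKM, which are scaled to depth and gene length. Repeated rows of a name had equal values and were used once.

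Groups were taken from the labels. Counts were scaled with TMM factors and tested with edgeR 4.0.16 in R 4.3.3 (quasi-likelihood test, 1 mean per group, filterByExpr with min.count 10 and min.total.count 15, prior count 2 for log2 CPM), with Benjamini-Hochberg adjustment over all genes tested. The same fit was run without maintenance library 3, an alternative that also has its own set of repeats. Fitting was tested on simulated data. FPKM served to compare levels between genes. The members, the lists and the tests were chosen with earlier results of these data known. From each pathway list, up to 3 genes per comparison with the smallest adjusted p among those called could be named, and the genes most like the members were the 10 with the highest Pearson's r. Alternatives were DESeq2 1.42.0, RLE scaling, total counts, no filter on low counts, only the groups compared, limma 3.58.1 on log2(FPKM + 1) and log2(FPKM + 0.1), the Lars2 set as a term, 3 libraries left out together, each library left out in turn and a replicate block. Deviations of libraries with equal replicate numbers correlated between -0.181 and 0.378, and in 0 of 10 comparisons were all 3 pairs above 0.1, so the numbers were not taken to pair the samples.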

Additional observations from a re-analysis of the deposited data

Results flagged for a closer look

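Thrsp differed between regain and gain4, which both ended with 4 weeks of high-fat diet at the same age and share the control16 reference, by a test of the difference itself: -1.68 ± 0.44 on the log2 scale without maintenance library 3 (edgeR, adjusted p = 0.0284), lower in 3 of 3 regain libraries than in any gain4 library. It was the only 1 of 10 members called without maintenance library 3, against 9.4% of all genes. With all 27 libraries the difference was not called. The call ended without regain library 1 or 3 or gain4 library 1 or 2. In the same comparison without maintenance library 3, 4 of 14 adipocyte markers were called lower (list median -0.87) and 5 of 10 macrophage markers higher (list median 1.41), and their part in the difference was not tested.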

How the results depend on the processing

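Each value here is the number of the 10 members called. With all 27 libraries, gain8 against control8 went to 3 on total counts, with DESeq2 and with limma on log2(FPKM + 1) or log2(FPKM + 0.1), and to 5 with only the groups compared. Maintenance against control16 gave 2 with RLE scaling and 5 with no filter or DESeq2. Gain4 against control16 gave 1 with DESeq2. Regain against control16 gave 0 with no filter or the replicate block, 3 with only the groups compared and 2 with DESeq2. Regain against maintenance gave 0 with only the groups compared, 5 with DESeq2, which gave the 4 others (Acly, Elovl6, Me1 and Srebf1) no adjusted p with 27 libraries, and 3 with either limma setting, and control8 against initial gave 8 with only the groups compared. With the 3 libraries that stand apart left out (maintenance 3, loss 1 and control12 3), the counts were 4 for gain8, 4 for gain4, 4 for regain, 1 for regain against gain4, 5 for regain against maintenance and 3 for control8 against initial.

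In regain against maintenance 5 log2 fold changes turned positive: Fasn 0.38, Acly 0.79, Scd2 3.47, Elovl6 0.34 and Me1 0.54 without those 3 libraries, and 0.39, 0.80, 3.48, 0.35 and 0.55 without maintenance library 3 alone. The lowest values with 1 library left out, all without maintenance library 2, were -4.27, -4.63, -1.82, -4.89 and -3.90 in the same order.

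The repeats without maintenance library 3 were chosen after seeing the data. With only the groups compared, a fit on fewer libraries, they gave 5 for gain8, 1 for loss and 0 for gain4. They gave 0 for regain against gain4 and 8 for control8 against initial in that fit. DESeq2 gave 2 for loss against gain8 and 3 for control8 against initial, which had 0 with the replicate block or the Lars2 set as a term. The cause of these changes was not tested.

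With 1 library left out in turn, 27 libraries gave 0 to 3 members for gain8, 0 to 4 for loss, 0 to 9 for maintenance, 0 to 3 for gain4, 0 to 4 for regain, 0 to 1 for regain against gain4, 4 to 9 for regain against maintenance and 0 to 1 for control8 against initial. The 26 libraries gave 2 to 4, 0 to 5, 0 to 0, 1 to 4, 2 to 4, 0 to 2, 1 to 5 and 0 to 3 in the same order, and 0 to 2 for loss against gain8. Control16 against control8 and the difference of differences stayed at 0 in both. Beside these, 3819 values of the repeats with 27 libraries and 3707 of those without maintenance library 3 kept their side of the threshold. Those of them not called moved by at most 1 SE, whether or not their sign changed. A further 98 and 36 passed the threshold only there, and 56 and 77 missed it only there. Another 43 and 30, not called in either fit, moved by more than 1 SE. With 27 libraries 10 values changed sign with a call in at least 1 of the fits. The replicate numbers were not taken to pair the samples, and the labels do not say whether equal numbers mark related samples.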
